A study of Mus musculus with 12 samples.

Results

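Levels of 10 genes of mitochondrial fatty acid oxidation were followed in visceral white fat of mice of the FVB/N strain. They are 10 of the 50559 gene symbols counted, chosen by name as a pathway, with earlier results of these data known. The 10 are the nuclear receptor gene Ppara, the carnitine palmitoyltransferase genes Cpt1a, Cpt1b and Cpt2, the acyl-CoA dehydrogenase genes Acadvl, Acadl, Acadm and Acads, and the trifunctional protein genes Hadha and Hadhb. Of these, 9 passed the filter on low counts and stood among the 16550 genes tested, and Cpt1b did not.

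RNA of the tissue was read as gene counts in 12 libraries, 3 in each of 4 groups. Transgenic mice carried a TGF-b1 transgene together with the tTA driver, both named for alpha-myosin heavy chain (alphaMHC), a gene of heart muscle and not of fat. Tgfb1 itself stood in fat at 77.6 ± 4.04 CPM in transgenic high-fat, 56.5 ± 5.27 CPM in transgenic control, 66.8 ± 2.80 CPM in wild-type high-fat and 46.5 ± 1.08 CPM in wild-type control libraries (SD, n = 3 each), where counts of the transgene and of the mouse gene may not be separate. Wild-type mice, also FVB/N and described as littermates, carried the tTA driver alone, which both genotypes therefore share. Mice of each genotype ate a high-fat diet with 60% of its kcal as fat (5.21 kcal/g) or control chow with 17% as fat (3.1 kcal/g). The groups are thus transgenic high-fat, transgenic control, wild-type high-fat and wild-type control. Mice were 8 to 10 weeks old at feeding, which lasted 2 or 6 weeks, and the labels do not say which duration a library had. They do not state either that every library is a separate mouse, so the spread behind each p-value is that between libraries and may be partly technical.

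In this pathway, long-chain acyl-CoA is transferred to carnitine by CPT1 at the outer mitochondrial membrane and back to coenzyme A by CPT2 inside. The acyl-CoA dehydrogenases, which differ in the chain length they accept, begin each round of shortening, and the trifunctional protein, built from the Hadha and Hadhb products, carries out the remaining steps on long chains. PPAR-alpha is a fatty acid-activated receptor that switches on many of these genes in liver, heart and brown fat. White adipocytes mainly store fat, and the pathway is far more active in brown and beige adipocytes.

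The libraries held 20.1 to 21.3 M counts over genes. Levels are given as CPM, read counts normalised to library size and scaled by the TMM factors of edgeR (0.950 to 1.07). The adipocyte list summed to 41077 to 50938 CPM in the 12 libraries, and Adipoq, the adiponectin gene, lay between 3066 and 5459.5 CPM, so the labelled tissue carried its defining markers. Several libraries also held transcripts of other cells. The 13 skeletal and cardiac muscle genes summed to 860.3 CPM in transgenic control replicate 3 and 567 CPM in wild-type high-fat replicate 3, with 92.0 CPM or less in the other libraries. The 11 epithelial genes summed to 397 CPM in transgenic control replicate 2 and 153 CPM in wild-type control replicate 1, with 43.0 CPM or less in the others. The 8 liver genes summed to 326 CPM in wild-type high-fat replicate 2, with 63.6 CPM or less in the others. In bulk tissue, fewer cells of a type and less RNA per cell cannot be told apart.

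Promoter sequence is shown for the gene whose call the diet comparison turns on, Cpt1a, and for the pair Hadha and Hadhb. The starts of this pair in the GENCODE annotation face away from each other with 85 bases between them on chromosome 5. The sequences are RefSeq's (GRCm38.p6), 5′ to 3′ on the plus strand. The Cpt1a stretch, chr19:3323051-3323284, covers 250 to 17 bases before the RefSeq start. GENCODE begins Cpt1a further upstream, at 3322334, so this stretch lies inside the gene as GENCODE draws it. The other stretch is the whole space between the 2 genes in GENCODE, chr5:30155163-30155247. Capitals mark matches on either strand to GGGCGG (GC box, which reads CCGCCC on the other strand) and to AGGTCA (core site of nuclear receptors, which reads TGACCT on the other strand).
Cpt1a: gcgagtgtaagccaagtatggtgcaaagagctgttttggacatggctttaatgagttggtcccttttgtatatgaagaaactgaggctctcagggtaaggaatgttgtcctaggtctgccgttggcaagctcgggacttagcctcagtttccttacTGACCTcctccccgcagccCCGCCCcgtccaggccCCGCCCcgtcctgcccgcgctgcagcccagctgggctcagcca
Hadha and Hadhb: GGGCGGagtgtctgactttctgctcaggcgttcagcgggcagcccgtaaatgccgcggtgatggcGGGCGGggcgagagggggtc

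RefSeq windows of 300 bases, 250 before and 50 after the start, were matched for 9 of the 10 genes (none for Cpt1b). GGGCGG occurred in 7 of the 9 windows, against 35.7% of all 32851 windows, and lay in those of Cpt1a, Cpt2, Acadl, Acads, Hadha, Hadhb and Ppara. The Hadha and Hadhb windows overlap, and the only match in the Hadha window is the same bases as a match in the Hadhb window. The RefSeq starts of both lie inside the genes as GENCODE draws them, so more than 85 bases lie between these starts. AGGTCA occurred in 3 of the 9 (Cpt1a, Acadm and Acadvl), against 16.3% of all windows. In Cpt1a it begins 94 bases before the start. The direct repeat of AGGTCA with 1 base between the copies, to which PPAR and RXR are known to bind, occurred in 0 of the 9 windows and in 0.0396% of all windows. CCAAT occurred in the Cpt1a window alone of the 9, against 37.4% of all windows. Both strands were searched for each motif, and a match is a description of these letters and not a binding site.

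**Figure D1:**
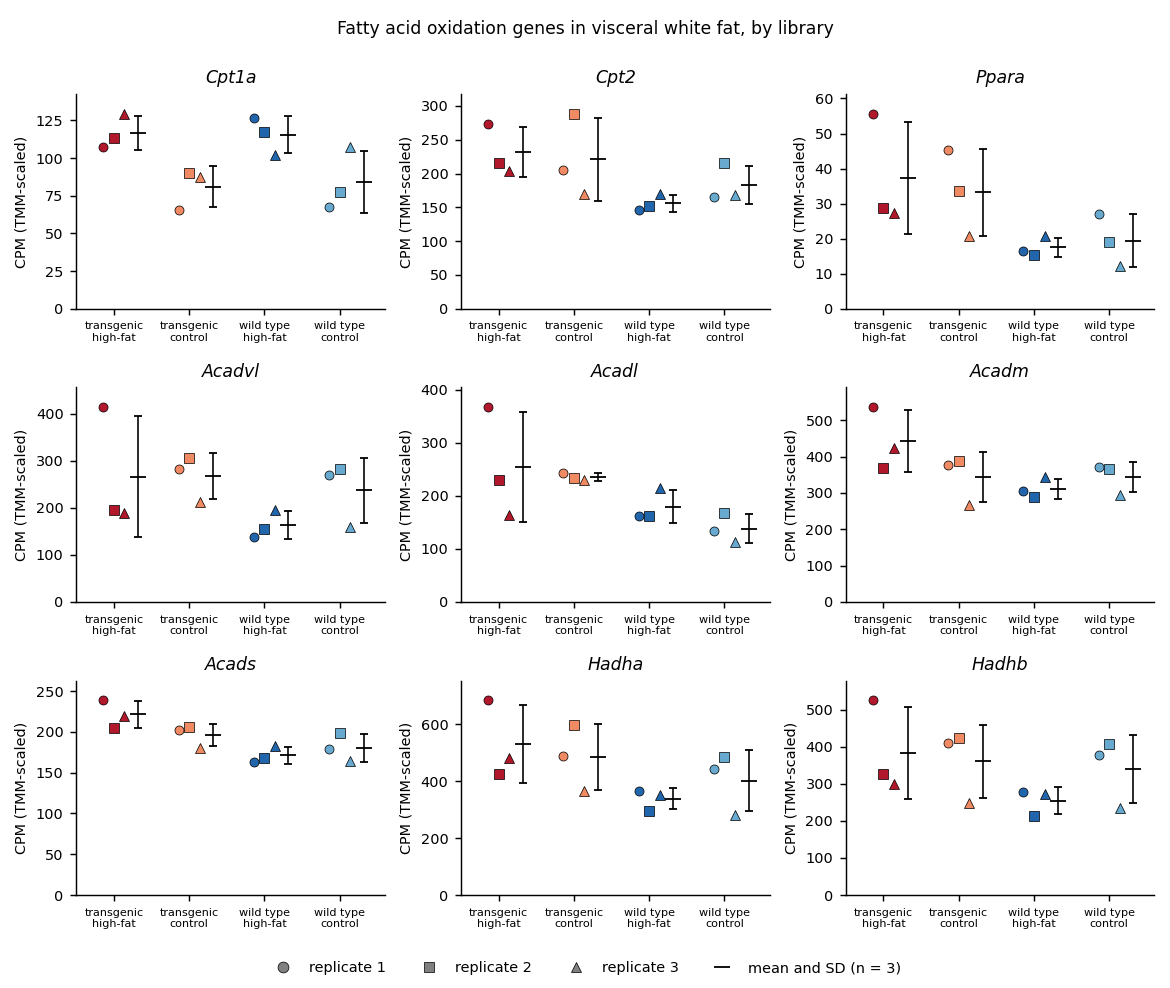
Level (CPM scaled by TMM factors, vertical axis from 0) of 9 fatty acid oxidation genes in the 12 libraries, by group; symbols are replicates, and bars are the group mean and SD (n = 3 libraries). Transgenic high-fat replicate 1 is the highest of all libraries for 7 of the 9 genes, and for Cpt1a each of the 6 high-fat libraries lies above the means of both control groups (80.8 and 84.2 CPM).

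Ppara encodes the receptor itself and lies on chromosome 15, 85734983 to 85802819 (GRCm38, GENCODE). It had 55.6, 28.9 and 27.4 CPM in transgenic high-fat libraries and 45.4, 33.5 and 20.7 CPM in transgenic control libraries. It had 16.4, 15.4 and 20.7 CPM in wild-type high-fat libraries and 27.2, 19.0 and 12.2 CPM in wild-type control libraries. All transgenic high-fat libraries lay above all wild-type high-fat libraries, whereas on control diet the genotypes overlapped. Of the 9 genes Ppara had the widest range, 4.56-fold between the lowest library (wild-type control replicate 3) and the highest (transgenic high-fat replicate 1).

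Cpt1a, on chromosome 19, 3322334 to 3385733, encodes the liver-type CPT1, the step at which malonyl-CoA restrains fat burning. Its levels were 107, 113 and 129 CPM in transgenic high-fat libraries and 65.2, 90.1 and 87.2 CPM in transgenic control libraries. They were 126, 118 and 102 CPM in wild-type high-fat libraries and 67.8, 77.5 and 107 CPM in wild-type control libraries. The diets did not overlap in transgenic tissue. In wild type, 1 control library (replicate 3) lay within the range of the high-fat libraries.

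Cpt2, on chromosome 4, 107903981 to 107923610, encodes the inner-membrane transferase. It stood at 273, 216 and 204 CPM in transgenic high-fat libraries and at 205, 288 and 169 CPM in transgenic control libraries. It stood at 147, 151 and 169 CPM in wild-type high-fat libraries and at 166, 215 and 168 CPM in wild-type control libraries. Its highest library was transgenic control replicate 2, and the 3 wild-type high-fat libraries were all below the 3 transgenic high-fat libraries.

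Cpt1b, on chromosome 15, 89416405 to 89425863, encodes the muscle-type CPT1, which is also the main form in brown fat. It had 4, 0 and 2 counts in transgenic high-fat libraries, 0, 0 and 1 in transgenic control libraries, 3, 0 and 1 in wild-type high-fat libraries, and 3, 1 and 0 in wild-type control libraries, 15 in all. The annotation places 2744 of its 3372 exon bases (81.4%) inside exons of Gm44502, a read-through gene on the same strand that joins Chkb, the neighbouring choline kinase gene, to Cpt1b. Gm44502 is among the genes counted and had 0 counts in all 12 libraries, and Chkb, with 50.7% of its exon bases in Gm44502, had 7 counts in all. HTSeq's default counting sets aside reads that fall in exons of more than 1 gene, so these counts give no level of Cpt1b, and no value of its expression is reported. The other 9 genes shared no exon base with another gene on the same strand.

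**Figure D2:**
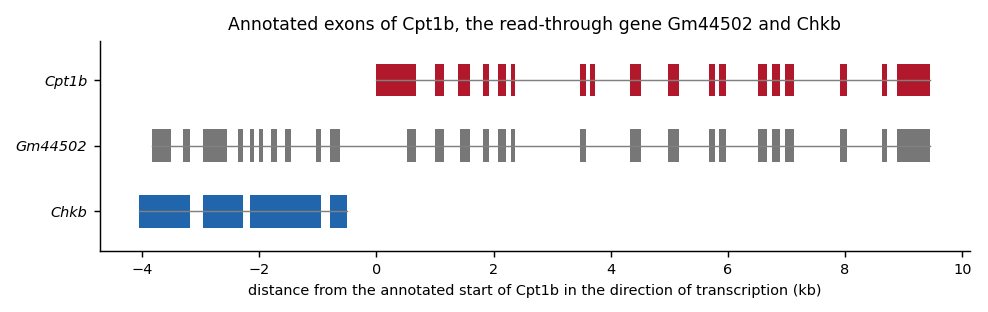
Annotated exons (boxes) of Cpt1b, the read-through gene Gm44502 and Chkb, along the distance in kb from the start of Cpt1b in the direction of transcription. Nearly every exon of Cpt1b is drawn again in Gm44502, the overlap that covers 81.4% of its exon bases.

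The acyl-CoA dehydrogenase genes differed in how much their libraries spread. Acadvl, on chromosome 11, 70010183 to 70015411, encodes the very-long-chain enzyme and had 414, 195 and 189 CPM in transgenic high-fat libraries and 282, 306 and 212 CPM in transgenic control libraries. It had 137, 155 and 195 CPM in wild-type high-fat libraries and 269, 283 and 158 CPM in wild-type control libraries. In the transgenic high-fat group replicate 1 stood alone, with the other 2 libraries below every transgenic control library. Of its exon bases, 42.9% overlap Dvl2 on the opposite strand, and since the strand setting of the counting is not given in the sources used here, its level may include reads of Dvl2 or lack reads set aside.

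Acadl, on chromosome 1, 66830839 to 66863277, encodes the long-chain enzyme, which in mice takes a large share of long-chain substrates. It had 368, 231 and 164 CPM in transgenic high-fat libraries and 244, 233 and 230.4 CPM in transgenic control libraries. It had 162, 162 and 215 CPM in wild-type high-fat libraries and 134, 168 and 112 CPM in wild-type control libraries. The transgenic control libraries lay close together (236 ± 7.12 CPM, SD, n = 3) and all above the wild-type control libraries (138 ± 27.9 CPM), while on high-fat diet the genotypes overlapped.

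Acadm, on chromosome 3, 153922357 to 153944632, encodes the medium-chain enzyme. It averaged 443 ± 85.8 CPM in transgenic high-fat libraries (369 to 537), 344 ± 67.7 CPM in transgenic control libraries (266 to 389), 312 ± 28.0 CPM in wild-type high-fat libraries (288 to 343) and 344 ± 42.3 CPM in wild-type control libraries (295 to 371; SD, n = 3 each). Transgenic high-fat replicates 1 and 3 lay above every library of the other 3 groups, and replicate 2 lay inside the range of both control groups.

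Acads, on chromosome 5, 115110299 to 115119346, encodes the short-chain enzyme and was the steadiest of the 9 genes, with a 1.47-fold range over the 12 libraries. It had 239, 205 and 219.7 CPM in transgenic high-fat libraries and 202, 206 and 180.2 CPM in transgenic control libraries. It had 163, 168 and 183 CPM in wild-type high-fat libraries and 179, 199 and 164 CPM in wild-type control libraries. The transgenic high-fat libraries were all above the wild-type high-fat libraries.

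Hadha (chromosome 5, 30118304 to 30155162) and Hadhb (30155248 to 30184593) encode the alpha and beta subunits of the trifunctional protein and are transcribed away from each other from the shared stretch. Hadha had 686, 424 and 483 CPM in transgenic high-fat libraries, 490.5, 597 and 367 CPM in transgenic control libraries, 366, 297 and 352 CPM in wild-type high-fat libraries, and 442, 486 and 280.2 CPM in wild-type control libraries. Hadhb had 526, 326 and 298 CPM, 411, 423 and 247 CPM, 278, 213 and 273 CPM, and 378, 406 and 235 CPM in the same 4 groups in that order. In both genes the wild-type high-fat libraries were below all transgenic high-fat libraries, and replicate 3 was the lowest library of both control groups. Per kb of the principal transcript, Hadhb exceeded Hadha in 12 of 12 libraries, and the ratio of Hadha to Hadhb ran from 0.596 to 0.825 with a median of 0.664. This gap depends on the length used: per kb of all merged exons the means were 50.3 CPM for Hadha and 50.7 CPM for Hadhb. Hadha and Hadhb also overlap little with other genes, 0.859% of exon bases for Hadha (Garem2, opposite strand) and none for Hadhb.

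Levels can be set side by side between genes only per length. Per kb of the principal annotated transcript, the mean over the 12 libraries was 176 CPM per kb for Acadm, 163 for Hadhb, 109 for Hadha, 107 for Acadvl, 105 for Acadl, 103 for Acads, 83.3 for Cpt2, 23.0 for Cpt1a and 7.87 for Ppara. The ranges over libraries overlapped between each of these neighbours apart from Cpt2 and Cpt1a, where Cpt2 was higher in 12 of 12 libraries. Cpt1a and Ppara ranges met at the edges, although Cpt1a was higher in each of the 12 libraries. The order of the first 7 depends on the transcript length used: over all merged exons, Acadl came first (101 CPM per kb) and Hadhb and Hadha came after Cpt2 (50.7 and 50.3 CPM per kb), with Cpt1a and Ppara last on both scales. The ratio of Acadvl to Acadl per kb was 0.920 ± 0.152 in transgenic high-fat, 0.999 ± 0.175 in transgenic control and 0.800 ± 0.0488 in wild-type high-fat libraries, against 1.5 ± 0.264 in wild-type control libraries (SD, n = 3 each), a description without a test.

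Cpt1a rose on high-fat diet when the genotypes were averaged, and no other gene of the 9 passed the test. The mean of the diet differences in transgenic and wild-type tissue was 0.49 on the log2 scale for Cpt1a (SE 0.12, 95% interval 0.23 to 0.75, a 1.41-fold rise; adjusted p = 0.0169, edgeR quasi-likelihood test, Benjamini-Hochberg over all genes tested). Of all genes tested, 17.4% were called in this comparison and 9.43% were called higher, so 1 called gene of 9 is near that background. Cpt1a stayed called in 12 of 12 fits that left out 1 library each (adjusted p 0.00474 to 0.0462). The other 8 genes lay between -0.27 (Acadvl, SE 0.21) and 0.24 (Acadl, SE 0.17), with adjusted p of 0.355 (Acadl) or more, and the median of the 9 was 0.01, against -0.02 for all genes.

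Within each genotype alone the Cpt1a difference did not pass. It was 0.53 in transgenic tissue (SE 0.17, 1.44-fold, adjusted p = 0.0752), where its groups did not overlap, as was so for 14.4% of all genes in the higher direction. In wild type it was 0.45 (SE 0.17, 1.37-fold, adjusted p = 0.189). The authors' deposited table gives Cpt1a in transgenic tissue 0.54 with an adjusted p of 0.0177, and calls no other of the 9 there, against 9.88% of its genes. DESeq2 on all 12 libraries gives Cpt1a an adjusted p of 0.0341, its 1 call among the 9, where it calls 12.7% of all genes. Without wild-type control replicate 3 the edgeR adjusted p for transgenic tissue was 0.0370, the 1 fit of 12 in which it passed.

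Markers of other cells also moved with diet, averaged over genotypes, where 9.43% of all genes were called higher and 7.98% lower. Of the mesothelial list, 4 of 6 genes fell, and its sum was 111 to 328 CPM in transgenic high-fat and 580.3 to 627 CPM in transgenic control libraries, and 322 to 425 CPM in wild-type high-fat and 507 to 820 CPM in wild-type control libraries, with no overlap in either genotype. Of the epithelial list, 5 of the 8 tested genes fell, and its sum was 12.7 to 15.8 CPM in transgenic high-fat and 29.0 to 397 CPM in transgenic control libraries, and 18.2 to 29.3 CPM in wild-type high-fat and 22.9 to 153 CPM in wild-type control libraries. Of the macrophage list, 4 of 12 genes rose and 1 fell, and its sum was 1027 to 1439 CPM in transgenic high-fat and 907 to 977 CPM in transgenic control libraries, and 1102 to 1252 CPM in wild-type high-fat and 1059 to 1231 CPM in wild-type control libraries. Of the T and B lymphocyte list, 4 of 8 rose, with sums of 3.69 to 12.3 CPM in transgenic high-fat, 3.22 to 4.87 CPM in transgenic control, 6.32 to 7.88 CPM in wild-type high-fat and 6.06 to 15.4 CPM in wild-type control libraries. Of the liver list, 5 of the 7 tested genes rose, while its sums overlapped between diets in both genotypes. The part of these cells in the diet differences of Cpt1a and of the other oxidation genes was not tested.

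In transgenic tissue 0 of the 9 genes passed by edgeR, against 8.73% of all genes tested, and 1 (Cpt1a) had an unadjusted p below 0.05, against 25.8%. The median difference of high-fat over control libraries was 0.13 (all genes -0.02), with 8 of the 9 positive, against 47.1% of all genes. The values were 0.36 for Acadm (SE 0.17, unadjusted p = 0.0555), 0.18 for Acads, 0.17 for Ppara, 0.13 for Hadha, 0.11 for Acadl, 0.09 for Hadhb, 0.07 for Cpt2 and -0.004 for Acadvl. Most of these signs turned without transgenic high-fat replicate 1. The median without it was -0.09 and 3 of 9 were positive (Cpt1a 0.59, Acadm 0.21, Acads 0.12), while Acadvl stood at -0.47 and Acadl at -0.25. Leaving out transgenic control replicate 3 instead gave a median of -0.03, with 4 of 9 positive. Over all genes 543 to 912 were called in place of 1445 when transgenic control replicate 1 or 2 or transgenic high-fat replicate 1 or 3 was left out.

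In wild-type tissue 0 of the 9 genes passed by edgeR, against 1.14% of all genes tested, and 0 by DESeq2, against 4.99%. Cpt1a alone had an unadjusted p below 0.05 (0.0209), against 18.1% of all genes. The median of the 9 was -0.15 (all genes -0.01). Acadl was the other positive value (0.38, SE 0.24), and the 7 negative values ran from -0.54 for Acadvl (SE 0.30, adjusted p = 0.368) and -0.42 for Hadhb (SE 0.27) to -0.07 for Acads, which was 0.00075 without TMM. Over all genes 0 to 17 were called in place of 188 when wild-type control replicate 1 or 2 or any 1 wild-type high-fat library was left out. The authors' deposited table calls 0 of the 9 in this comparison, against 5.98% of its genes. The 2 diet comparisons share no library. Whether the diet difference itself differed between genotypes was tested as an interaction, which called 0 of the 9 genes and 0% of all genes by edgeR, with adjusted p of 0.864 or more for the 9. An unadjusted p below 0.05 was found for 0 of the 9, against 5.61% of all genes, and DESeq2 called 0, against 0.215%. The interaction value was 0.51 for Acadm (SE 0.24, unadjusted p = 0.0599), which was the smallest unadjusted p of the 9.

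**Figure D3:**
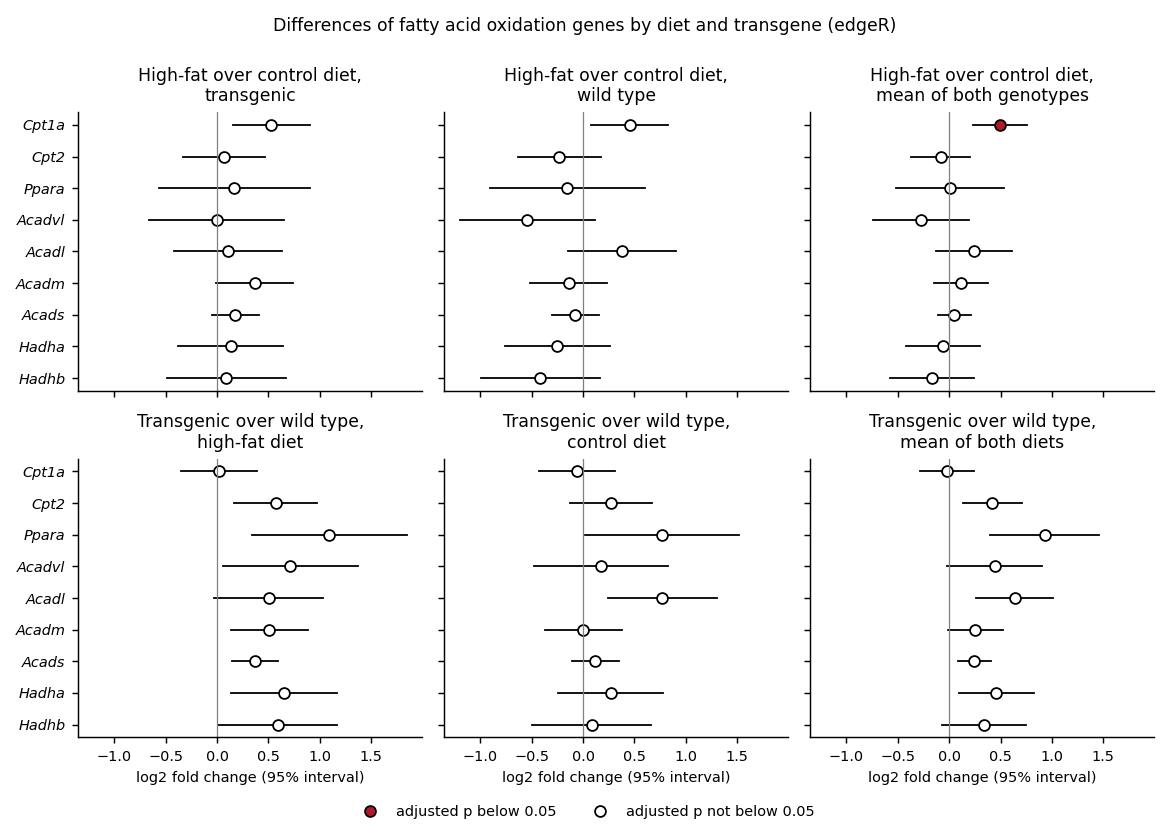
Log2 fold changes with 95% intervals (edgeR) of 9 fatty acid oxidation genes in 6 comparisons; filled points passed an adjusted p of 0.05. The Cpt1a diet difference averaged over genotypes (0.49) is the filled point, and on high-fat diet the points for transgenic over wild type lie at or right of 0 for all 9 genes, with Cpt1a turning to -0.069 without TMM.

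On high-fat diet, all 9 genes had higher levels in transgenic than in wild-type tissue with TMM scaling, Cpt1a barely so and with the sign turned under upper-quartile scaling (-0.0057) and without TMM (-0.069). None of these differences passed the test. Of all genes, 50.3% had a higher mean. The median of the 9 was 0.57 on the log2 scale, beside 0.001 for all genes. Ppara differed most, at 1.09 (SE 0.35, 2.13-fold), followed by Acadvl at 0.71 (SE 0.30), Hadha at 0.65 (SE 0.24), Hadhb at 0.59 (SE 0.27), Cpt2 at 0.57 (SE 0.19), Acadm at 0.51 (SE 0.17), Acadl at 0.50 (SE 0.24) and Acads at 0.37 (SE 0.10). Cpt1a was at 0.02 (SE 0.17, 95% interval -0.35 to 0.39). This comparison shares the transgenic high-fat libraries with the diet comparison in transgenic tissue, so the same libraries enter both.

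No gene at all was called by edgeR in this comparison (0% of 16550), and adjusted p-values of the 9 were 0.712 or more. An unadjusted p below 0.05 with a higher level in transgenic tissue was found for 7 of the 9, against 3.75% of all genes. Libraries did not overlap for 6 of the 9 (Cpt2, Acadm, Acads, Hadha, Hadhb and Ppara), against 7.52% of all genes in that direction. DESeq2 on all 12 libraries called 0 of the 9 (8 with an unadjusted p below 0.05), and 0.00933% of all genes. The authors' deposited table, which calls 0.554% of its genes here, calls 3 of the 9: Ppara (1.09, adjusted p = 0.00679), Cpt2 (0.57, adjusted p = 0.0149) and Hadha (0.65, adjusted p = 0.0372).

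How far 1 library carries this was measured by leaving each out. Transgenic high-fat replicate 1 was the highest of the 12 libraries for Ppara, Acadvl, Acadl, Acadm, Acads, Hadha and Hadhb, 7 of the 9. Without it the median of the 9 was 0.30 in place of 0.57, all 9 values stayed positive, and 1 gene kept an unadjusted p below 0.05 (Acads, 0.30, SE 0.11, unadjusted p = 0.0214). Acadl was at 0.13 without it, Acadvl at 0.23, Hadhb at 0.29, Acadm at 0.34, Hadha at 0.41, Cpt2 at 0.42 and Ppara at 0.68 (SE 0.33, unadjusted p = 0.0639). Acadvl, Ppara and Acadl moved furthest, and of the 8 genes other than Cpt1a Acads moved least. Leaving out any other single library moved the 9 values less far toward 0, apart from that of Cpt1a, which ran from -0.07 to 0.09.

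**Figure D4:**
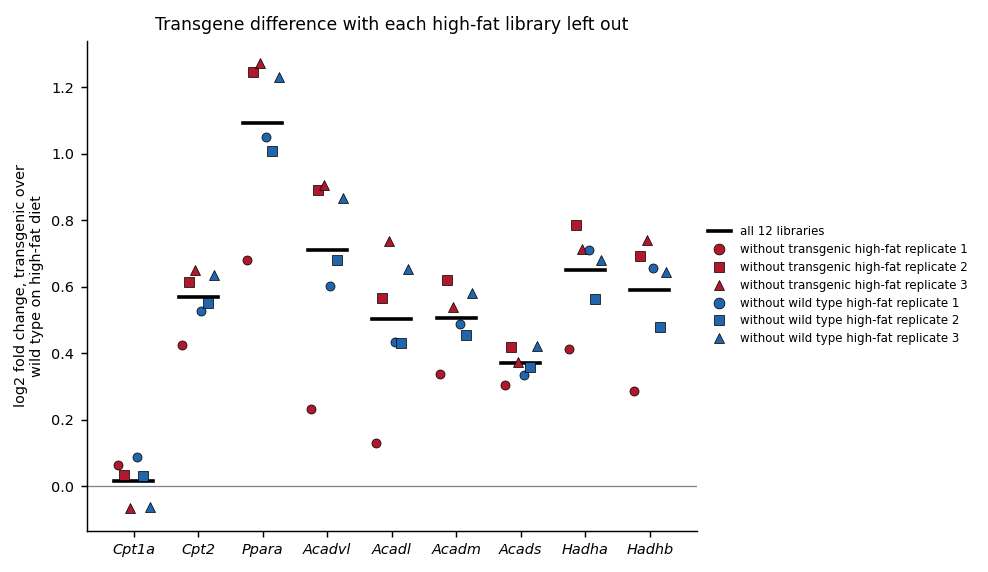
Log2 fold change of transgenic over wild type on high-fat diet (vertical axis) for 9 genes, with all 12 libraries (black bars) and with each high-fat library left out (symbols). The red circles, without transgenic high-fat replicate 1, are the lowest value for every gene other than Cpt1a, for example 0.13 in place of 0.50 for Acadl.

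Markers of brown and beige fat moved with the same library. The 10 genes of that list, of which 8 passed the filter, summed to 687, 109 and 148 CPM in transgenic high-fat libraries and 189, 250.3 and 50.1 CPM in transgenic control libraries. They summed to 29.7, 17.9 and 152 CPM in wild-type high-fat libraries and 242, 217 and 22.6 CPM in wild-type control libraries. Ucp1, the uncoupling protein that defines these cells, had 227, 37.8 and 20.3 CPM in transgenic high-fat libraries, 28.0, 89.1 and 1.53 CPM in transgenic control libraries, 0.378, 0.0878 and 50.9 CPM in wild-type high-fat libraries, and 92.4, 27.7 and 0.0924 CPM in wild-type control libraries. Cidea, a lipid droplet protein gene of the same cells, had 243, 25.3 and 37.6 CPM in transgenic high-fat libraries. Zic1, a marker of classical brown fat, was at 0 in every transgenic library, and Cox7a1 reached at most 0.814 CPM. Replicate 3 was the lowest library of both control groups for the brown and beige sum. So it was for Hadha, Hadhb, Acadvl, Acadl, Acadm, Acads and Ppara, and not for Cpt1a or Cpt2. The part of these cells in the differences of the 9 genes was not tested. Ucp1 itself differed by 2.48 between genotypes on high-fat diet (SE 1.75, adjusted p = 0.823), by 1.27 for diet in transgenic tissue (SE 1.67, adjusted p = 0.679) and by -1.23 in wild type (SE 1.70, adjusted p = 0.753).

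**Figure D5:**
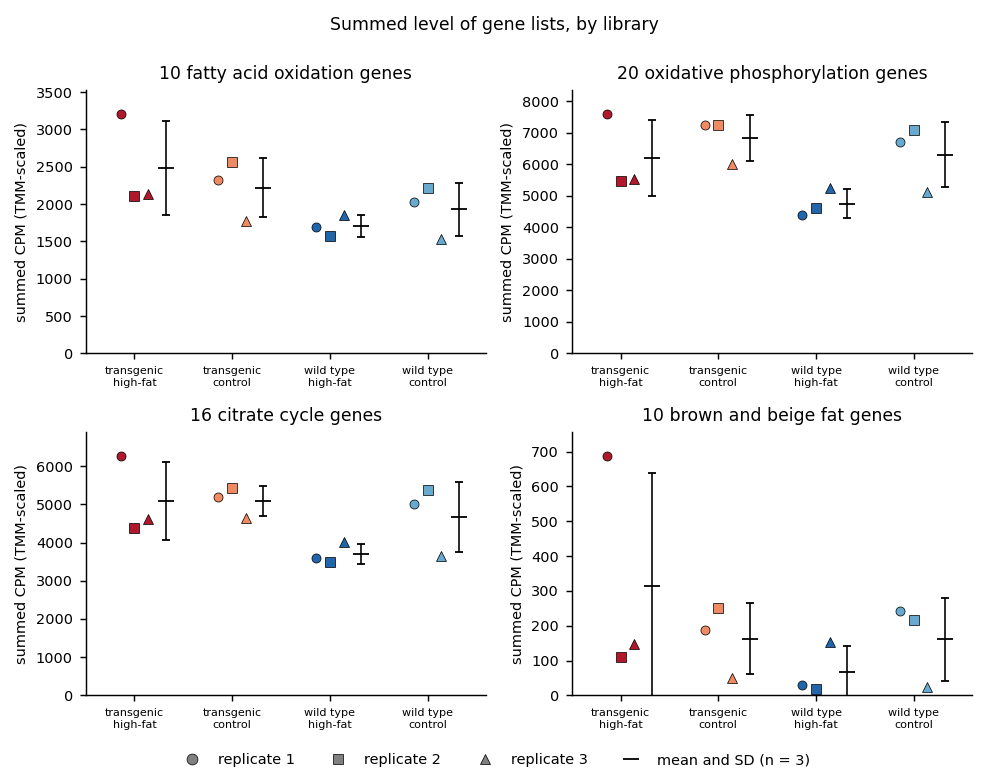
Summed level (CPM scaled by TMM factors) of the 10 fatty acid oxidation genes and of 3 other lists in the 12 libraries; symbols are replicates, bars are mean and SD (n = 3 libraries), and bars that would pass below 0 are cut there. Transgenic high-fat replicate 1 is the highest library in all 4 lists, at 3206 CPM for the 10 genes and 687 CPM for the brown and beige list.

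On control diet, transgenic tissue differed from wild type by a median of 0.17 over the 9 genes (all genes -0.005), and 0 of the 9 passed by edgeR or DESeq2, against 0.0363% and 1.69% of all genes. Of the 9, 2 had an unadjusted p below 0.05 with a higher transgenic level, against 5.2% of all genes. Acadl differed by 0.77 (SE 0.24, 1.71-fold, unadjusted p = 0.00795, adjusted p = 0.278) without overlap of its libraries, as was so for 6.5% of all genes in that direction. Ppara differed by 0.77 (SE 0.34, unadjusted p = 0.0450, adjusted p = 0.441). The other values were 0.27 for Cpt2, 0.27 for Hadha, 0.17 for Acadvl, 0.12 for Acads, 0.08 for Hadhb, 0.001 for Acadm and -0.06 for Cpt1a. The authors' deposited table, with 0.942% of its genes called here, calls Acadl (0.78, adjusted p = 0.00117) and no other of the 9.

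Averaged over both diets, the genotype difference was 0.93 for Ppara (SE 0.24, 1.91-fold, adjusted p = 0.213) and 0.64 for Acadl (SE 0.17, 1.55-fold, adjusted p = 0.221). It was 0.46 for Hadha, 0.44 for Acadvl, 0.42 for Cpt2, 0.34 for Hadhb, 0.25 for Acadm, 0.24 for Acads and -0.02 for Cpt1a, with a median of 0.42 (all genes -0.004). By edgeR 0 of the 9 passed, and 0% of all genes did. An unadjusted p below 0.05 was found for 5 of the 9 (Cpt2, Acads, Acadl, Hadha and Ppara), against 6.24% of all genes in the higher direction. DESeq2 on all 12 libraries called Ppara (adjusted p = 0.0131) and Acadl (adjusted p = 0.0231) here, where it called 1.45% of all genes. Without transgenic high-fat replicate 1 the values were 0.72 for Ppara (SE 0.22, unadjusted p = 0.00778) and 0.45 for Acadl (SE 0.13, unadjusted p = 0.00552), with 4 of the 9 at an unadjusted p below 0.05.

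Beside the 9 genes, 8 lists of the rest of the pathway held 128 tested genes. Averaged over genotypes, edgeR called 3 of the 128 higher and 16 lower by diet, against 9.43% and 7.98% of all genes. By genotype it called 0 of the 128, where it called 0.0363% of all genes or fewer. The mesothelial, epithelial, macrophage, lymphocyte and liver markers given for Cpt1a moved in the same diet comparison. Among the 14 genes of fatty acid activation and the carnitine shuttle, Acacb fell on high-fat diet. It makes the mitochondrial acetyl-CoA carboxylase, whose product malonyl-CoA restrains CPT1. Acacb had 239, 199.8 and 200.4 CPM in transgenic high-fat libraries and 472, 697 and 279 CPM in transgenic control libraries, with 102, 59.1 and 88.5 CPM in wild-type high-fat libraries and 478, 459 and 185 CPM in wild-type control libraries. No high-fat library of either genotype overlapped the controls of its own genotype. A fall without overlap was found for 13.5% of all genes in transgenic tissue and 12.4% in wild type. Averaged over genotypes the Acacb difference was -1.67 (SE 0.26, adjusted p = 0.00178), called in 12 of 12 fits without 1 library. In wild type it was -2.17 (SE 0.38, adjusted p = 0.0249), a call lost when any 1 of these was left out: wild-type control replicates 1 and 2 and the 3 wild-type high-fat libraries (adjusted p up to 0.137). In transgenic tissue it was -1.18 (SE 0.36, adjusted p = 0.0641) and did not pass by edgeR, whereas DESeq2 on all 12 libraries calls it there, and so does the authors' deposited table (-1.17, adjusted p = 0.000166).

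Of the 13 tested genes of that list, 2 fell and 0 rose averaged over genotypes, where 7.98% of all genes were called lower, the second being Acaca (-1.52, SE 0.31, adjusted p = 0.00695), the cytosolic carboxylase of fatty acid synthesis. The list's median was -0.23. Mlycd, which breaks malonyl-CoA down, had a diet difference of -0.30 averaged over genotypes (SE 0.12, adjusted p = 0.102), and Slc25a20, the carnitine-acylcarnitine carrier, one of 0.12 (SE 0.17, adjusted p = 0.668). On high-fat diet Acacb was higher in each transgenic than in each wild-type library, as was so for 7.52% of all genes. Its difference was 1.36 (SE 0.37, unadjusted p = 0.00289, adjusted p = 0.712), and the authors' deposited table calls it there (1.35, adjusted p = 5.13e-10). The same table calls no difference for Slc25a20 (0.65, adjusted p = 0.156) or Mlycd (0.34, adjusted p = 0.830).

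Of 18 other mitochondrial beta-oxidation genes (median -0.16), 4 fell and 0 rose averaged over genotypes, where 7.98% of all genes were called lower. They were Acadsb, the short/branched-chain dehydrogenase (-0.41, SE 0.09, adjusted p = 0.0103), Echs1, the short-chain enoyl-CoA hydratase (-0.40, adjusted p = 0.0347), Hsd17b10 (-0.29, adjusted p = 0.0370) and Acad10 (-0.39, adjusted p = 0.0429). The Acadsb call held in 12 of 12 fits without 1 library, those of Echs1, Hsd17b10 and Acad10 in 5, 3 and 3 (adjusted p up to 0.0909, 0.0877 and 0.107). Acadsb had 209, 212 and 168 CPM in transgenic high-fat libraries and 313, 271 and 272 CPM in transgenic control libraries, and fell there too (-0.54, SE 0.13, adjusted p = 0.0261), a call lost without transgenic control replicate 1 or transgenic high-fat replicate 3 (adjusted p up to 0.109). Acaa2, the long-chain thiolase, had 366, 141 and 146 CPM in transgenic high-fat libraries, where replicate 1 again stood alone, and 114, 123 and 155 CPM in wild-type high-fat libraries (0.74, SE 0.30, adjusted p = 0.714).

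Peroxisomal oxidation genes, 17 tested, had a median diet difference of 0.08 averaged over genotypes. Of them 1 was called higher and 2 lower, against 9.43% and 7.98% of all genes. Amacr, the racemase of branched fatty acids, fell by 0.40 (SE 0.08, adjusted p = 0.00759), called in 12 of 12 fits without 1 library. Scp2 fell by 0.36 (adjusted p = 0.0379), called in 2 of 12 (adjusted p up to 0.0947). In transgenic tissue alone Amacr passed as well (-0.43, adjusted p = 0.0427), in 3 of 12 fits without 1 library (adjusted p up to 0.147).

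PPAR-alpha targets outside beta-oxidation went both ways by diet, with a median of -0.16 over the 13 tested, averaged over genotypes. Of the 13, 2 were called higher and 2 lower, against 9.43% and 7.98% of all genes. Vnn1, a pantetheinase gene, fell averaged over genotypes (-1.66, SE 0.36, adjusted p = 0.00900). In transgenic tissue it fell as well (-1.80, adjusted p = 0.0463), a call that held in 2 of 12 fits without 1 library (adjusted p up to 0.158). Creb3l3, a transcription factor gene at 0.387 to 2.33 CPM, rose averaged over genotypes (1.45, SE 0.28, adjusted p = 0.00504), and so did Angptl4, the lipoprotein lipase inhibitor (0.43, SE 0.12, adjusted p = 0.0246). Vnn1 and Creb3l3 stayed called in 12 of 12 fits without 1 library, and Angptl4 was lost without transgenic high-fat replicate 3, wild-type high-fat replicate 1 or wild-type control replicate 1 (adjusted p up to 0.0587). Pdk4, which blocks pyruvate entry and is a known PPAR-alpha target, had no called diet difference (0.14, SE 0.29, adjusted p = 0.769).

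Pdk4 had 303, 108 and 158 CPM in transgenic high-fat libraries and 121, 168 and 108 CPM in transgenic control libraries, with 50.6, 32.3 and 92.9 CPM in wild-type high-fat libraries and 48.0, 87.4 and 71.5 CPM in wild-type control libraries. Each transgenic library thus stood above each wild-type library on either diet. Within a diet, that was so for 7.52% of all genes on high-fat diet and 6.5% on control diet. The Pdk4 genotype difference was 1.69 on high-fat diet (SE 0.41, unadjusted p = 0.00143, adjusted p = 0.712) and 0.94 on control diet (SE 0.41, unadjusted p = 0.0393, adjusted p = 0.423), and neither passed by edgeR. The authors' deposited table calls Pdk4 on control diet (adjusted p = 0.00975) and not on high-fat diet (adjusted p = 0.284).

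Among 18 transcriptional regulators of oxidation, 1 fell and 0 rose averaged over genotypes (median -0.05): Prkaa2, a catalytic subunit of AMP-activated kinase (-0.46, SE 0.14, adjusted p = 0.0380), called in 2 of 12 fits without 1 library (adjusted p up to 0.0958). With 7.98% of all genes called lower, this share is no larger than the background, and nor are those of the next pair of lists. Ppargc1a, the coactivator of mitochondrial biogenesis, lay between 2.68 and 10.4 CPM and had a diet difference of -0.22 (SE 0.30, adjusted p = 0.651). Downstream, Sdha of the citrate cycle fell by 0.41 (SE 0.11, adjusted p = 0.0249; 1 of 16 genes called). Mccc2 of branched-chain amino acid oxidation fell by 0.23 (adjusted p = 0.04998; 1 of 13). Among the 20 oxidative phosphorylation genes, Atp5c1 (-0.36, adjusted p = 0.0274) and Uqcrc2 (-0.45, adjusted p = 0.0463) fell. No gene of these 4 lists rose, and Prkaa2, Sdha, Mccc2, Atp5c1 and Uqcrc2 each stayed called in 2 to 4 of 12 such fits (adjusted p up to 0.126).

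For the genotype, edgeR called 0 of the 128 tested genes of these 8 lists on either diet, averaged over diets or in the interaction. Of all genes it called 0.0363% on control diet, and 0% on high-fat diet, averaged over diets and in the interaction. These lists, like the 9 genes, were chosen with earlier results of these data known. An unadjusted p below 0.05 with a higher transgenic level was found for 41 of the 128 on high-fat diet (3.75% of all genes) and for 10 on control diet (5.2% of all genes), and a lower one for 1 (2.98% of all genes) and for 5 (5.78% of all genes). DESeq2 called 0 of them on high-fat diet. On control diet it called 3, against 1.69% of all genes, with edgeR differences of 0.54 for Angptl4, -0.58 for Pparg and -0.69 for Lpin1. Averaged over diets it called 10, against 1.45% of all genes: Acsl1, Slc27a1, Acot2, Ehhadh, Pdk4, Angptl4, Ppargc1b, Ogdh and Bcat2, with edgeR differences of 0.37 (Ogdh) or more, and Pparg, at -0.36. By edgeR their adjusted p in that average was 0.141 or more. The medians of the lists on high-fat diet were all positive, as that of the 9 genes was: 0.43 for the citrate cycle, 0.39 for activation and the carnitine shuttle, 0.33 for oxidative phosphorylation, 0.29 for other mitochondrial beta-oxidation, 0.29 for PPAR-alpha targets, 0.23 for branched-chain amino acid oxidation, 0.20 for peroxisomal oxidation and 0.16 for regulators. The 2 genes of each list with the smallest p included Ogdh (0.52) and Sdhc (0.49) of the citrate cycle, Acsl1, an acyl-CoA synthetase (0.54), Cyc1 (0.67) and Uqcrc1 (0.59) of respiratory complex III, Acot2 (0.89) and Hadh (0.40) of mitochondrial oxidation, Ehhadh of the peroxisome (0.49), and Ppargc1b (0.64) and Esrra (0.36) among the regulators. Their unadjusted p-values were 0.0442 (Esrra) or less, and none passed the adjustment. The summed oxidative phosphorylation level was 7589, 5482 and 5530.3 CPM in transgenic high-fat libraries and 7251, 7248 and 6001 CPM in transgenic control libraries, against 4386, 4603 and 5253 CPM in wild-type high-fat libraries and 6700.0, 7085 and 5126 CPM in wild-type control libraries. For that sum too, the 3 wild-type high-fat libraries were all below the 3 transgenic high-fat libraries, and replicate 3 was the lowest of both control groups. Transgenic high-fat replicate 1 had the highest sum of its group in these lists, apart from PPAR-alpha targets and regulators, where replicate 3 did. The citrate cycle summed to 6268, 4377 and 4622 CPM in that group. The count of 41 and the list medians are not given here without replicate 1.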

How the data were processed

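The authors deposited raw read counts per gene for each of the 12 libraries, made with HISAT2 2.2.0 and HTSeq 2.0 on the mm10 build, per the submitters' processing notes. The annotation release and the strand setting were not given in the sources used here. The 5 summary entries of reads without a gene (16.8% to 21.0% of reads) stayed out of library sizes and tests. The authors also deposited DESeq2 1.32.0 tables per comparison with, per the file headers, a log2 fold change, Wald score, p-value and adjusted p-value.

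In R 4.3.3, edgeR 4.0.16 kept genes by filterByExpr (minimum count 10, minimum total 15), scaled libraries by TMM and fitted one group-means model of 12 libraries (8 residual degrees of freedom). Quasi-likelihood tests were adjusted by Benjamini-Hochberg over 16550 genes, with calls at an adjusted p below 0.05. The 4 pairwise comparisons, the interaction and both averages were tested, 7 in all. The steps were tested on simulated data. Alternatives were DESeq2 1.42.0, limma 3.58.1 (voom with quality weights), other scalings, no filter, a replicate block, the compared groups alone, and libraries left out, 21 in all. No 2 libraries of a group were alike within counting error (lowest chi-square 20.7 per degree of freedom), so none was merged.

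The members and the lists were chosen with earlier results of these data known. All 10 members are named, with a set panel of 10 further genes and, from each of 8 lists, up to 4 genes with the smallest p where any was called and up to 2 elsewhere; results of some genes that this rule names are not reported here. Exon overlaps come from GENCODE, promoters from RefSeq, both on GRCm38.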

Additional observations from a re-analysis of the deposited data

How the results depend on the processing

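By edgeR on all 12 libraries, 1 of the 9 genes was called for diet averaged over genotypes and 0 in the other 6 comparisons. That count for the averaged diet was 1 under every alternative run, Cpt1a each time. In transgenic tissue the diet count was 1 (Cpt1a) with DESeq2 and with no filter beyond 1 count, and 0 to 1 over the fits without 1 library. For genotype averaged over diets it was 2 (Acadl and Ppara) with DESeq2 and 2 with no filter. The cause was not tested.

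Fits with the replicate number as a block called the same numbers of the 9 genes in all 7 comparisons. Over all genes the block gave 99 calls for diet in wild type (188 without it) and 1087 in transgenic tissue (1445 without it). Libraries with the same number deviated together (correlation above 0.1) in 4 of 18 pairs, from -0.11 to 0.27. The highest value was between transgenic control and wild-type high-fat replicates 3. Such values from 3 libraries a group do not settle whether the numbers pair the libraries. With the block the calls of Amacr and Vnn1 in transgenic tissue (adjusted p = 0.0713 and 0.0542) and those of Acad10, Echs1, Hsd17b10 and Mccc2 averaged over genotypes were lost. With the block the Acadm genotype difference on control diet was -0.0024.

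All-gene calls in wild-type diet were 847 by DESeq2, 699 by voom and 683 with no filter; in genotype on control diet, 256, 8 and 269, against 6; in genotype averaged over diets, 220, 2 and 145, against 0; in the interaction, 30, 0 and 53, against 0. With the compared groups alone, diet in transgenic tissue gave 764, against 1445. Without the muscle-bearing libraries (transgenic control and wild-type high-fat replicates 3) diet in wild type gave 23. Without the epithelium-bearing ones (transgenic control replicate 2, wild-type control replicate 1) it gave 32, diet in transgenic tissue 826 and averaged diet 1865. These libraries were chosen with their marker sums known.

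Signs changed only for values that were not called. They were, on the log2 scale, Cpt1a for genotype on high-fat diet with upper-quartile scaling (-0.0057), without TMM (-0.069) and without the muscle-bearing libraries (-0.062); without TMM also Acads for diet in wild type (0.00075) and the Cpt1a interaction (-0.014); with voom Hadhb for diet in transgenic tissue (-0.000797) and Ppara for averaged diet (-0.079); with no filter Acadvl for diet in transgenic tissue (0.0041) and Acadm for genotype on control diet (-0.0055). Without the muscle-bearing libraries, diet in transgenic tissue was -0.092 for Cpt2, -0.033 for Hadha, -0.12 for Hadhb and -0.080 for Ppara, and averaged diet was -0.0024 for Acadm and for Acads and -0.19 for Ppara. Without the epithelium-bearing libraries, Ppara for diet in wild type was 0.17, Acadvl for diet in transgenic tissue 0.11, Cpt2 and Acadm for genotype on control diet -0.042 and -0.045, and Cpt2 and Hadha for averaged diet 0.0076 and 0.070.

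Without 1 library, signs changed in diet in transgenic tissue for Acadl (-0.25 to 0.36), Acadvl (-0.47 to 0.20), Cpt2 (-0.093 to 0.31), Hadha (-0.091 to 0.32), Hadhb (-0.20 to 0.25) and Ppara (-0.23 to 0.47); in diet in wild type for Acads (-0.14 to 0.0088) and Ppara (-0.40 to 0.17); in averaged diet for Cpt2 (-0.16 to 0.043), Hadha (-0.17 to 0.035) and Ppara (-0.19 to 0.17). They also changed in genotype on control diet for Acadm (-0.10 to 0.15), Acadvl (-0.051 to 0.32), Hadhb (-0.12 to 0.29) and Cpt1a (-0.20 to 0.15), and for Cpt1a in genotype on high-fat diet (-0.067 to 0.087), averaged genotype (-0.095 to 0.085) and the interaction (-0.14 to 0.21), and for the Ppara interaction (-0.084 to 0.62). With 3 libraries a group and 20.1 to 21.3 M counts each, the spread between libraries and not the depth sets these errors. Cpt1b was not tested and has no such error.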
